A study of Rattus norvegicus with 16 samples.

Results

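Neuropeptide and opioid system genes were examined in spinal dorsal horn tissue of normal rats and of rats bearing cancer-induced bone pain (CIBP). They are 10 genes chosen by name (Penk, Pdyn, Tac1, Sst, Npy, Nts, Calca, Tacr1, Oprm1 and Oprk1), taken where they had a row in a deposited table of 8671 genes from an RNA immunoprecipitation (RIP). Of the 10 genes, 6 had a row (Penk, Tac1, Sst, Nts, Calca and Oprm1), and the other 4 were not analysed here. The samples were 12 libraries for N4-acetylcytidine (ac4C, an acetylated cytidine in RNA) and 4 libraries of the RIP. For ac4C, 3 normal and 3 CIBP replicates each had an immunoprecipitated (IP) library and an input library of total RNA. For the RIP, 2 IP libraries and 2 inputs came from CIBP alone, so the RIP has no normal control. All rats carried the genotype WT. Strain, age, day after tumour inoculation, and whether a replicate is 1 rat or several are not given in the sources used here. The lists of ac4C peaks for the CIBP replicates carry the abbreviation CFA, and the grouping follows the sample labels. The design text speaks of interference with an acetyltransferase, written NAT0 there, and no sample label names such a group.

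Neuropeptides are cut from larger precursors, stored in dense-core vesicles and released onto G protein-coupled receptors. In the dorsal horn, sensory afferents release substance P (from Tac1) and calcitonin gene-related peptide (CGRP, from Calca), which favour the relay of pain signals. Local interneurons make enkephalins (from Penk), which act on the mu opioid receptor (Oprm1) and other opioid receptors and dampen that relay. Somatostatin (Sst) and neurotensin (Nts) are peptides of further sets of dorsal horn interneurons.

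Each IP and input pair for ac4C gave a list of peaks, 6 lists in all, with 1208, 1802 and 1418 peaks in controls 1, 2 and 3 and 50417, 2416 and 1173 in CIBP 1, 2 and 3. Fold enrichments and false discovery rates (FDR) of peaks are the authors' values. CIBP 1 stands apart, since 49281 of its peaks have a fold of 10.6, nearly all of them above an FDR of 0.05. Within an FDR of 0.05 there were 916, 1074 and 1003 control peaks, and CIBP had 919, 1240 and 899. No read totals were used here, and the depth behind these values is unknown. Among cell type markers, 5 of 7 for neurons in general had a row in the RIP table. So did 5 of 6 markers of inhibitory and 3 of 7 of excitatory dorsal horn neurons, and 3 of 5 of motor neurons. Of 8 sensory ganglion markers 1 had a row, Prph (peripherin), with input signals of 11.1 and 12.2. The RIP table lists only genes past a threshold of IP over input, and the general neuronal markers Snap25 and Syt1 had no row. No listed input signal was below 1.00, and whether genes were also left out for low signal was not tested. Having or lacking a row therefore does not tell which cells the tissue held. The part of RNA from sensory neurons, nerve roots or spinal neurons in the values of Calca and Tac1 was not tested.

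In the RIP, 5 of the 6 genes lay below the middle of the table in the authors' log2 fold, and Tac1 lay above it. Each pair also had 5 genes below its own median, but the gene above was Calca in pair 1 and Tac1 in pair 2. All rows of the table passed a log2 fold of 1 and had p-values under 0.05, so that an IP signal above input belongs to the choice of rows and is not a finding. In the authors' deposited table the log2 fold had a median of 2.40, that is 5.28 times more signal in IP than in input, with an interquartile range of 2.07 to 2.70. For the 6 genes the authors' deposited table gave log2 folds from 1.67 to 2.60, with a median of 2.02, or 4.06-fold. The median was 2.05 for the markers of neurons in general, and 1.64 for those of motor neurons. It was 1.96 for markers of excitatory and 2.06 for those of inhibitory dorsal horn neurons. Only markers of oligodendrocytes (3.29), microglia (3.14) and meningeal fibroblasts (2.43) had a median above that of the table. A place below the table's median was therefore not particular to the 6 genes. For the level of a signal in bulk tissue, as apart from the fold, fewer cells of a type and less RNA per cell cannot be told apart. The unit of the signal is not given, so its level is mainly compared between libraries for a given gene. Where genes are set beside each other by input signal, this holds on the deposited scale only. IP and input were not tested against each other, because only genes past a threshold are listed.

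Penk encodes proenkephalin, the precursor of the enkephalins. Its signal was 11.0 and 11.7 in inputs 1 and 2 and 49.8 and 53.5 in IP 1 and 2. Both IP libraries were high and both inputs low, and the pairs gave nearly the same ratio, 4.55 and 4.58. The authors' deposited table gave a log2 fold of 2.19 (FDR 2.79e-73), and 33.2% of the table's genes had a lower one. The log2 ratios of the pairs differed by 0.0096, and 98.0% of genes differed by more. That closeness depends on the pairing: input 2 was 1.07 times input 1, and IP 2 was 1.07 times IP 1. Over all genes, deviations of IP and input were nearly uncorrelated (-0.029).

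Tac1, the precursor of substance P and neurokinin A, had input signals of 3.04 and 1.72 and IP signals of 13.8 and 14.9. The IP libraries were close together while input 1 was 1.76 times input 2, so the pairs gave ratios of 4.53 and 8.66. Its log2 fold was 2.60 in the authors' deposited table (FDR 1.60e-19), above 67.0% of genes. That place rests on pair 2, where the log2 ratio of 3.11 exceeded that of 93.9% of genes; in pair 1 it was 2.18 and exceeded 31.0%.

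Calca encodes the precursor of alpha-CGRP and, by alternative splicing, calcitonin. Its signal was 2.28 and 4.30 in inputs 1 and 2 and 14.4 and 13.8 in IP 1 and 2. Again the IP libraries were close and the inputs apart, but with input 2 the higher, so the ratio was 6.31 in pair 1 and 3.22 in pair 2. The authors' deposited table gave a log2 fold of 2.09 (FDR 2.71e-11), above 26.3% of genes. The pairs' log2 ratios were 0.97 apart, and 4.12% of genes had pairs farther apart, against a median difference of 0.25 over the table. For Tac1 the gap was 0.94, with 4.52% of genes beyond it, so the places of Calca and Tac1 depended on the pair.

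Sst, the somatostatin precursor, had input signals of 27.2 and 22.4 and IP signals of 89.8 and 85.9. The pairs gave ratios of 3.30 and 3.84. Its log2 fold in the authors' deposited table was 1.83 (FDR 3.92e-40), above 13.0% of genes, and both pairs placed it low, above 10.2% and 20.7% of genes. Among the 169 genes whose mean input signal lay within 20% of that of Sst, 13.6% had a lower log2 fold.

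Nts, the precursor of neurotensin and neuromedin N, had the highest FDR of the 6 genes. Its signal was 1.56 and 1.29 in the inputs and 4.71 and 6.37 in the IP libraries, close to the lowest input value listed for any gene (1.00). The pairs gave ratios of 3.01 and 4.95. The log2 fold was 1.96 in the authors' deposited table (FDR 9.95e-08), above 18.5% of genes.

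Oprm1, the mu opioid receptor and the only receptor of the 6 genes, had the lowest log2 fold from both pairs together, though Nts was lower in pair 1 (1.59 against 1.61) and Calca in pair 2 (1.69 against 1.72). Its signal was 4.15 and 3.95 in the inputs and 12.7 and 13.0 in the IP libraries, with ratios of 3.06 and 3.30. The authors' deposited table gave a log2 fold of 1.67 (FDR 2.62e-23), and 8.03% of genes had a lower one. Both pairs placed it low, above 7.35% and 11.9% of genes. In order of log2 fold, Tac1 stood first, followed by Penk, Calca, Nts, Sst and Oprm1. The ranges of the pairs overlapped among Tac1, Calca, Nts and Penk, and those of Calca and Nts also overlapped those of Sst and Oprm1, so most of this order is not fixed by these libraries. Oprm1 lay below Tac1, Penk and Sst in both pairs.

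**Figure D1:**
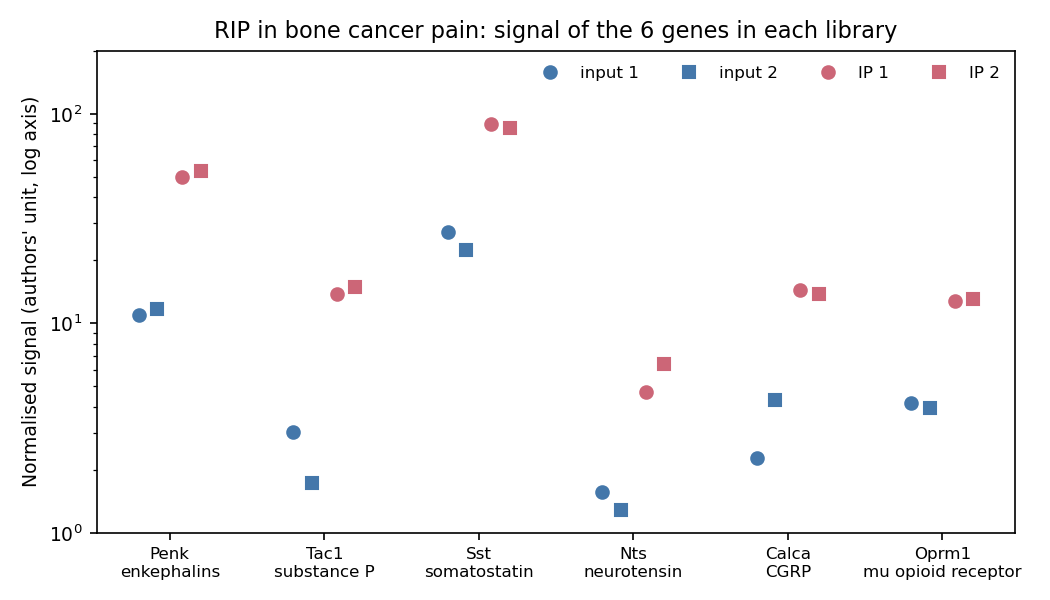
Normalised signal on a log axis for the 6 genes in the 2 input and 2 IP libraries of the RIP from CIBP; each point is 1 library. IP points lie close together for Tac1 (13.8 and 14.9) and Calca (14.4 and 13.8), while their inputs lie apart (3.04 and 1.72, and 2.28 and 4.30).

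No ac4C peak of these genes recurred at the same place in different lists, but only Penk and Calca had peaks in more than 1 list. As deposited, 5 of the 6 genes had a peak in at least 1 list, against 90.4% of all genes of the RIP table, and the lists held 13 peaks of these genes. Of the 13 peaks, 9 came from CIBP 1, and 8 of those were at its recurrent fold of 10.6 (FDR 0.0562). With an FDR of at most 0.05, 3 peaks in 3 genes were left, 1 each in Penk, Sst and Calca, against 36.8% of the table's genes with such a peak. None of the 4 pairs of peaks of a gene from different lists shared a base of exon. Each of these pairs held a peak with an FDR above 0.05. Within the limit none of the 6 genes had a peak in more than 1 list, so no such peak could recur. How often peaks of a gene overlapped between lists over all genes was not counted. Fisher's exact test on lists with and without a peak cannot give less than 0.10 with 3 lists against 3, so no gene could pass it.

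Counted by list, 0, 1 and 1 of the 6 genes had a peak as deposited in controls 1, 2 and 3, where 10.5%, 15.6% and 12.6% of the table's genes had one. In CIBP 1, 2 and 3 the counts were 4, 1 and 0, against 81.1%, 19.9% and 9.88% of genes. With an FDR of at most 0.05, 0, 1 and 1 genes had a peak in the controls (8.23%, 9.58% and 9.31% of all genes) and 1, 0 and 0 in CIBP (8.59%, 11.3% and 7.85%). With 6 genes these counts are too small to show or exclude a difference from the background, and none was tested.

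**Figure D2:**
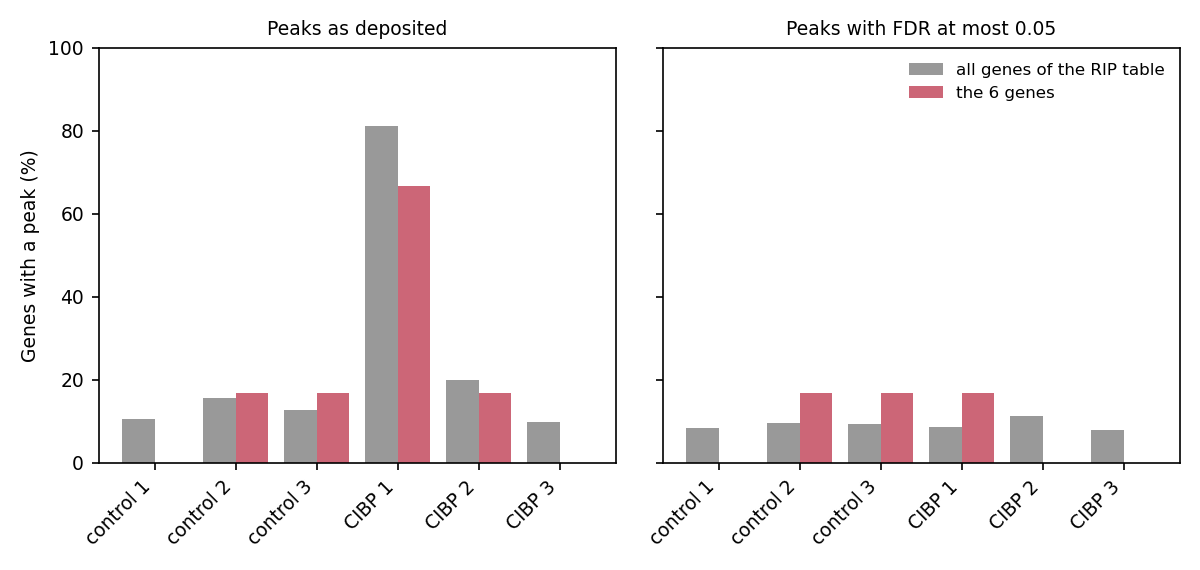
Share of genes with at least 1 ac4C peak in each list, for all 8671 genes of the RIP table (grey bars) and the 6 genes (red bars), with peaks as deposited on the left and with an FDR of at most 0.05 on the right. The high bars of CIBP 1 on the left, 81.1% of all genes, fall to 8.59% on the right.

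Calca was the only one of the 6 genes with a peak in more than 1 list of CIBP and in 0 lists of controls. Its strongest peak was in CIBP 1, on the minus strand of chromosome 1 from 184184020 to 184184287 (rn6), with a fold of 106 (FDR 1.26e-30). Of the 919 peaks of that list within the limit, 7.40% had a higher fold. A second CIBP 1 peak, from 184186255 to 184187039, had the recurrent fold of 10.6. The CIBP 2 peak ran from 184187098 to 184188792 in 3 exon blocks of 81, 95 and 3 bp, with a fold of 3.92 (FDR 0.127). Along the minus strand the CIBP 2 peak lay farthest upstream and the strong CIBP 1 peak farthest downstream, with 2810 bp of genome between them. Presence in 2 CIBP lists against 0 gave p = 0.4 (Fisher's exact test, two-sided). A peak in at least 2 lists of one group and in 0 of the other was called gained or lost; Calca was the 1 gene called gained, where 11.3% of the table's genes were gained and 0.738% lost. With an FDR of at most 0.05, Calca kept 1 CIBP list and 0 of the 6 genes were gained or lost, against 1.8% and 1.71% of genes. The call also ended without CIBP 1 or without CIBP 2. Over the table, 982 genes were gained as deposited, 102 without CIBP 1 and 340 without CIBP 2.

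Penk had peaks in both groups. The strongest was in control 3 on the minus strand of chromosome 5, in exon blocks of 178 bp (17057225 to 17057402) and 61 bp (17060896 to 17060956), so that it spanned an exon junction. Its fold was 25.7 (FDR 3.98e-30), and 46.4% of the peaks of that list within the limit had a higher fold. A weaker control 3 peak lay downstream on that strand, from 17056777 to 17056956 (fold 11.2, FDR 0.0617). In CIBP 1 a peak from 17061225 to 17061344, 268 bp upstream of the strongest, had the recurrent fold of 10.6. Presence in 1 list of each group gave p = 1 (Fisher's exact test).

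**Figure D3:**
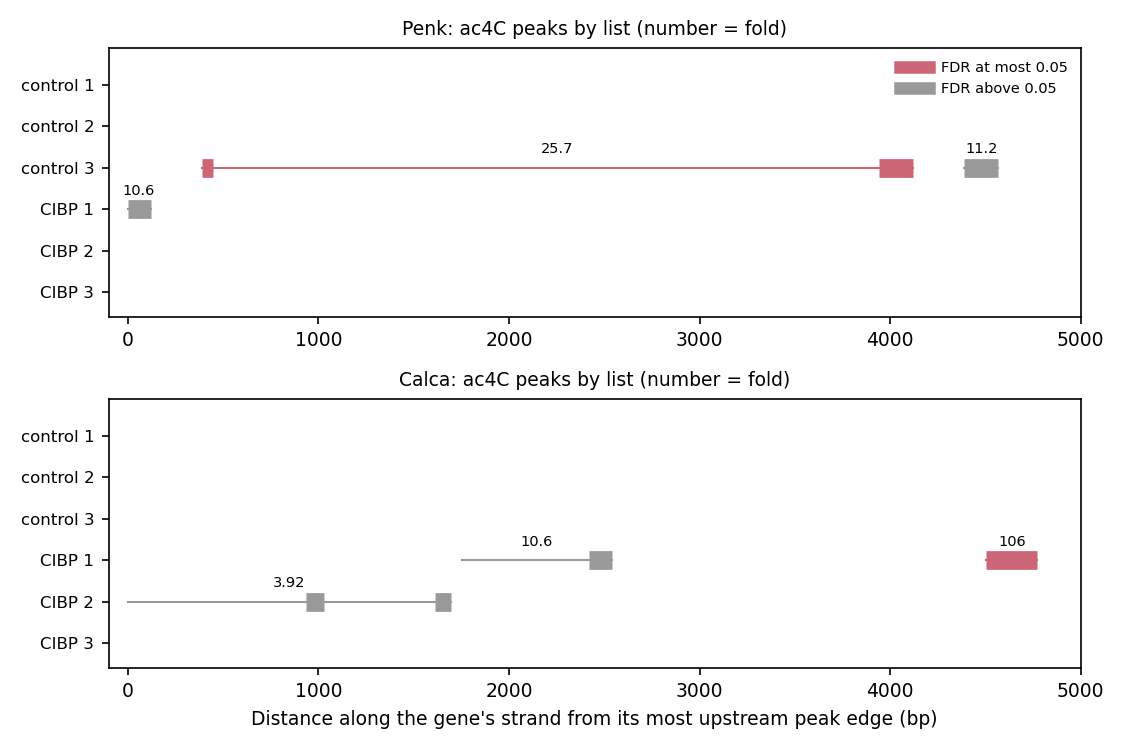
Peaks of Penk and Calca in the 6 lists, by distance in bp along the minus strand from the most upstream peak edge of each gene; thick bars are exon blocks, thin lines the introns between them, and numbers the authors' fold. No peaks of different lists overlap; those with an FDR of at most 0.05 (red) are the Penk peak of control 3 (25.7) and the Calca peak of CIBP 1 (106).

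Sst had a single peak, in control 2, at 80359182 to 80359357 of chromosome 11 (plus strand). Its fold of 4.35 was low and its FDR of 3.16e-19 small: of the 1074 peaks of that list within the limit, 81.3% had a higher fold but 14.7% a smaller p-value. Nts had 3 peaks, all in CIBP 1 at the fold of 10.6, on chromosome 7 between 44111151 and 44121130. Oprm1 likewise had 3 peaks in CIBP 1 at that fold, which covered 4944 bp in 16 exon blocks over 250146 bp of chromosome 1. Presence in 1 list against 0 gave p = 1 for Sst, Nts and Oprm1 (Fisher's exact test). Tac1 had no peak in any list, like 9.63% of the table's genes. Under the FDR limit such peaks were more often found in genes of higher signal on the deposited scale. They marked 22.6% of genes in the lowest 25% by mean input signal and 55.2% in the highest, where Penk and Sst lay. Calca, which also had such a peak, lay in the next lowest 25%, where 29.4% of genes had one.

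Other genes of the pathway, from 6 lists, numbered 96 with a row in the table. Their median log2 fold was 2.33 in the authors' deposited table, with 47 genes above and 49 below the median of all genes. With an FDR of at most 0.05, 36 of the 96 genes (37.5%) had an ac4C peak in at least 1 list, close to the 36.8% of all genes. Of these 96 genes, 1 was gained and 2 were lost under the limit, where 1.8% and 1.71% of all genes were. As deposited, 13 were gained and 1 was lost, beside 11.3% and 0.738% of all genes, and without CIBP 1 these counts were 0 and 5. A gene on more than 1 list was counted once.

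Of the peptide precursors, 10 had a row, with a median log2 fold of 2.08 in the authors' deposited table, 4 above and 6 below the median of all genes. The highest were Apln (apelin) at 2.99 and Gal (galanin) at 2.95, and the lowest Adcyap1 (PACAP) at 1.51 and Nppc (C-type natriuretic peptide) at 1.37, all from the authors' deposited table. Gal had IP signals of 20.7 and 22.3 over inputs of 1.86 and 3.64. Nucb2, the precursor of nesfatin-1, was the 1 precursor with a peak within the limit, in controls 2 and 3 (folds 19.6 and 22.3) and in 0 CIBP lists, and counted as lost; its peaks lay at different places on chromosome 1. As deposited it also had a peak in 1 CIBP list. Its control 2 peak had the same fold and FDR (19.6 and 0.0288) as that of the adenylyl cyclase Adcy1, a repeated value of that list.

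Among opioid genes outside the 10, 3 had a row. Oprl1, the nociceptin receptor, had a log2 fold of 3.18 in the authors' deposited table, from inputs of 1.78 and 2.26 and IP signals of 17.6 and 19.1, and its pairs gave 3.30 and 3.08. Its IP signals exceeded its inputs by more than those of Oprm1 did in each pair. Pnoc, the nociceptin precursor, stood at 2.18 and Ogfr, the opioid growth factor receptor, at 2.43 in the authors' deposited table. None of these 3 genes had a peak within the FDR limit.

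Peptide receptors numbered 12 with a row, 6 above and 6 below the table's median (list median 2.42). Parts of the CGRP receptor were Calcrl at 2.77 and its partner Ramp1 at 2.97 in the authors' deposited table, both above Calca at 2.09. The inputs of Ramp1 (1.06 and 1.38) were close to the lowest input value listed for any gene (1.00). Trhr and Npy1r, receptors of thyrotropin-releasing hormone and neuropeptide Y, were lowest, with Npy1r at 1.45 in the authors' deposited table. Npy1r had a peak within the limit in control 2 alone (fold 19.6). Crcp, a CGRP receptor component protein that also serves RNA polymerase III, carried the same peak in control 1 and CIBP 3, on the minus strand of chromosome 12 from 30136762 to 30148234, with folds of 26.4 and 239. Adcyap1r1, the PACAP receptor, had a peak in control 1 (fold 9.62) and CIBP 1 (12.2) at different places. Sort1 (sortilin), which also binds neurotensin, had peaks in control 1 and in all 3 CIBP lists, with folds of 14.4, 3.34, 6.97 and 5.40, and none of those overlapped.

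The list of peptide processing and dense-core vesicle genes had 16 genes with a row and a median log2 fold of 2.26 in the authors' deposited table, 7 above and 9 below the table's median. Cpd (carboxypeptidase D) at 3.45 and the convertase Pcsk6 at 3.14 were highest, and the granins Scg2 at 1.72 and Chgb at 1.39 lowest in the authors' deposited table. Pam, which amidates peptides such as substance P and CGRP, was the 1 gene gained under the limit. Its peaks on chromosome 9 (plus strand) ran from 111167826 to 111173233 in CIBP 1 (fold 9.14) and from 111173113 to 111173293 in CIBP 3 (fold 3.17), and they shared exonic bases. Scg3 (secretogranin III) had peaks in control 3 (fold 13.3) and in CIBP 1, 2 and 3 (2.51, 5.23 and 2.59). The control 3 and CIBP 3 peaks of Scg3 overlapped, both starting at 82639901 on chromosome 8. Peptide-degrading enzymes (16 genes, median 2.43) ran from Ctsl at 3.33 and Ide at 2.94 down to Dpp3 at 1.89 and Ece1 at 1.73 in the authors' deposited table. Dpp8 and Ctsb each had a peak in control 1 (folds 5.34 and 6.70) and in 1 CIBP list (146 and 4.98).

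Receptor signalling genes (41 with a row) had a median log2 fold of 2.31 in the authors' deposited table, 18 above and 23 below the median of all genes. The G protein subunit Gnb4 at 3.01 and the protein kinase A subunit Prkacb at 3.00 were highest, and Kcnj3, a potassium channel opened by opioid receptors, at 1.47 and the G protein subunit Gng2 at 1.14 lowest in the authors' deposited table. Gng2 had peaks in control 1 (fold 12.6) and in CIBP 1, 2 and 3 (10.6, 5.97 and 55.9). The CIBP 1 peak had that list's recurrent fold, and the CIBP 2 and CIBP 3 peaks both started at 4852958 on chromosome 15. Of the receptor kinases, Grk6 had peaks in controls 1 and 2 (folds 88.2 and 13.0) and was lost under the limit, though as deposited it also had a peak in 1 CIBP list. The fold of its control 2 peak was the most common one of that list. Grk2 had peaks in control 1 (3.71) and CIBP 2 (11.9). Cacna1a had peaks in controls 1 and 2 (96.2 and 137) and in CIBP 1 (13.2). The adenylyl cyclases Adcy1 and Adcy5 had a peak in control 2 (19.6 and 58.7) and in 1 CIBP list (100 and 127). No gene of the 6 lists had a peak in all 3 lists of one group and 0 of the other (Fisher's exact test would give 0.10 there).

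**Figure D4:**
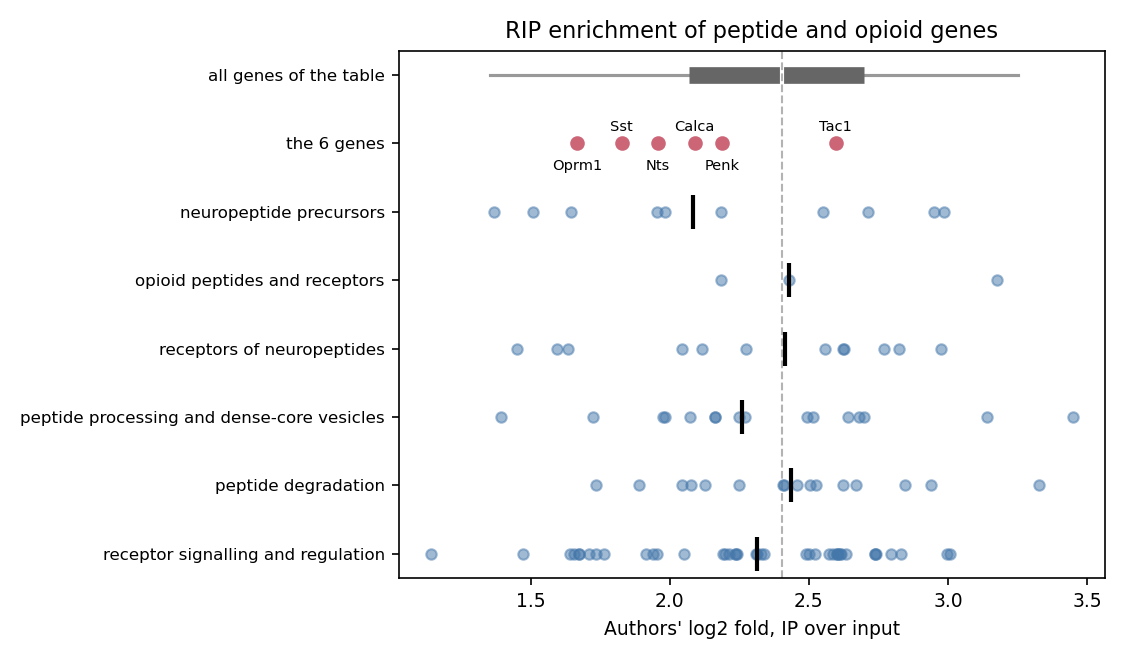
Authors' log2 fold of IP over input in the RIP for the 6 genes and for the other genes of the pathway by list; points are genes, black bars list medians, the thick grey bar the interquartile range of all genes, the thin line their central 95% and the dashed line their median of 2.40. Tac1 (2.60) is the only one of the 6 genes to the right of the dashed line.

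**Figure D5:**
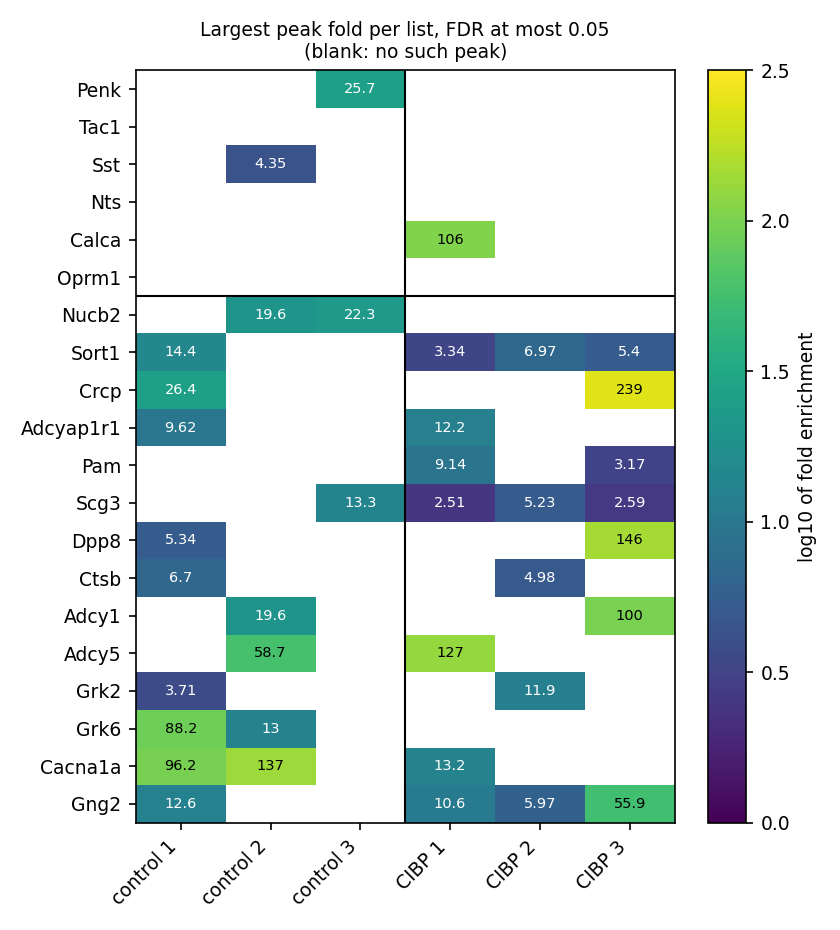
Largest fold of ac4C peaks with an FDR of at most 0.05 in each list for the 6 genes (above the black line) and the 14 other pathway genes with such a peak in at least 2 lists; colour is log10 of the fold and blank cells have no such peak. Each of Penk, Sst and Calca has 1 filled cell, and Sort1, Scg3 and Gng2 have 4.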

How the data were processed

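Per the file headers, the authors deposited 6 ac4C peak lists, called per IP and input pair, with the fold of each peak, a ratio of its IP to its input. The log10 p-value and log10 FDR of each peak (handled as a score) were also deposited by the authors. For the RIP the authors deposited a log2 fold, a p-value and an FDR per gene and a normalised signal per library, whose unit the header does not state. The submitters' processing notes name HOMER 4.10.4, DESeq2, HISAT2 2.1.0, cutadapt 2.5 and featureCounts 1.6.3, with no role given, and the build rn6; the peak caller and the RIP target are not given in the sources used here. The table held log2 folds above 1 and p-values up to 0.0488.

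Genes were matched by symbol, leaving out 29 symbols shared by 81 identifiers, and peaks by identifier. Peak starts, which the lists count from 0, were moved to count from 1. A gene counted as gained where 2 or 3 CIBP lists and 0 control lists had a peak in it, and lost in the opposite case. Named pathway genes were the 2 highest and 2 lowest log2 folds of each list and every gene with a peak within the FDR limit in at least 2 of 6 lists; Calcrl and Prph were added after their values were seen. The genes, lists and rules were chosen with earlier results of these data known. IP and input libraries of the RIP carry the same biological replicate number in the labels and were taken as pairs; across genes their deviations correlated at -0.029. Python 3.11.15, pandas 2.3.3 and scipy 1.17.1 were used, and the call rules were tested on simulated data. Per-gene p-values of Fisher's exact test compare only how many of these lists had a peak in each group. They do not measure the spread within a group and speak for these samples alone.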

Additional observations from a re-analysis of the deposited data

How the results depend on the processing

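The median log2 fold of the 6 genes (2.02) was 2.06 with the replicate block (the mean of the log2 ratios of paired IP and input) and 1.95 to 2.07 from single pairs. With a pseudocount of 1 or 10 on the signal it was 1.80 or 0.92, while the median of all genes moved by -0.32 or -1.37. Of the 6 genes 4 then lay below that median, against 5 without a pseudocount, but they were not the same 4 genes. With a pseudocount of 1, Tac1 and Penk lay above it. With a pseudocount of 10, Penk (1.53) and Sst (1.49) lay above the median of all genes (1.03), and Tac1 (0.97) lay below it. The sides of Tac1, Penk and Sst therefore depended on the pseudocount, while Nts, Calca and Oprm1 stayed below. For the 3 genes with a mean input at or above the table's median, the median log2 fold was 1.83. No paired analysis was possible for the peak lists because normal and CIBP replicates share only a number.

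Of the 6 genes, 5 had a peak as deposited, 3 with an FDR of at most 0.05, 3 at equal list lengths (1173 peaks), and 3 to 5 when single lists were left out. In these settings gained genes among the 6 numbered 0, 0 and 0 to 1, against 1 as deposited, and 0 with 3 of 3 lists required; none of the 6 was lost in any setting tried. Over the RIP table, 982 gained genes became 156 with the FDR limit, 173 at equal lengths, 79 with 3 of 3 lists, and 102 to 1242 without single lists. The 64 lost genes became 148, 186, 8, and 21 to 268. For the other pathway genes, 13 gained became 1, 2, 0, and 0 to 16, and 1 lost became 2, 3, 0, and 0 to 5; the low values of gained genes came without CIBP 1 and without CIBP 2. The 4 pairs of peaks from different lists, all of Penk or Calca, overlapped in 0 cases under either overlap rule. Depth is unknown, so a gene without a peak cannot be told from one covered by too few reads.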

Other observations

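Repeated folds were not confined to CIBP 1. The fold that most peaks shared was 16, 13 and 11.2 for controls 1, 2 and 3, against 10.6, 10.5 and 17.7 for CIBP 1, 2 and 3. It was held by 6.62%, 20.9%, 21.8%, 97.7%, 27.6% and 12.7% of the peaks of those lists. The weaker Penk peak of control 3 (fold 11.2) was among them, as were 280 peaks of that list with an FDR above 0.05.

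By the 4 RIP signals on a log2 scale, centred per gene, the pathway gene most like Penk among 96 was Ptprn, a protein of dense-core vesicles (distance 0.047). Oprm1 was closest to Rgs7, a regulator of G protein signalling (0.079), and Sst to Kcnj6, an inwardly rectifying potassium channel (0.12). Tac1 was closest to Prep, a prolyl endopeptidase (0.17), Calca to the convertase Pcsk7 (0.25) and Nts to Gna11, a G protein subunit (0.33). The distances rest on 4 libraries, in which the difference between IP and input dominates.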
